A study of Ovis aries with 18 samples.

Results

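The miR-25 and miR-92 seed family comprises microRNAs that share the seed, the short 5′ stretch with which a microRNA recognises its target transcripts. Its rows were chosen by name: a row belonged if its own name, or the microRNA listed as having the same seed, carried the number of miR-25, miR-92a, miR-92b, miR-32 or miR-363. This gave 5 of 495 rows in the table for uterine vesicles and 5 of 761 rows in the table for endometrium. In vesicles a pair of them, 10_3805 and X_35741, held identical values in all 8 libraries and were counted once, which left 4 distinct members. Vesicles and endometrium each had 1 row carrying the number of miR-25 and 4 rows carrying that of miR-92a as the listed seed. The numbers of miR-92b, miR-32 and miR-363 matched 0 rows. The sheep-named member is miR-25, and the others are 10_3805 with X_35741, 2_15108 and X_35743, each a predicted locus listed with the seed of bovine miR-92a. Different microRNAs can have the same seed, and these loci are therefore called by their identifiers.

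MicroRNAs of this family are processed from several polycistronic transcripts. miR-92a is the last member of the miR-17-92 cluster, a proliferation-associated cluster activated by MYC in mammalian cells, and a paralogous cluster on the X chromosome encodes a further copy beside miR-363. miR-25 belongs to the miR-106b-25 cluster, which lies within the gene of the DNA replication licensing factor MCM7. In RefSeq's gene list for the assembly ARS-UI_Ramb_v3.0, which is not the authors' build, MIR25 and MIR106B both lay inside the span of MCM7. Targets of the shared seed known from human and mouse cells include the apoptosis activator BCL2L11 (BIM), and both miR-25 and miR-92a are abundant in many cell types and in circulating vesicles and plasma.

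The samples came from ovariectomized ewes (Ovis aries). In the P4+RU486 ewes a daily 50 mg injection of progesterone (P4) ran for 14 days, and 50 mg of RU486, an antagonist of the progesterone receptor, was added each day from day 8 to day 14. The P4 ewes had the same 14 days of progesterone alone. Both treatments therefore share the ovariectomy and the progesterone. Small RNA was sequenced from extracellular vesicles of the uterine lumen (4 P4+RU486 and 4 P4 libraries) and from endometrium (5 P4+RU486 and 5 P4 libraries). The question was which microRNAs differed once the receptor was antagonized.

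Vesicle values are given in normalized CPM, reads scaled as CPM to a library size that the authors adjusted. Libraries are called R01 to R04 (P4+RU486) and P01 to P04 (P4), and each held 97202 to 1062646 reads in the table, so that 1 read was worth 1.10 to 10.4 normalized CPM. The 3 shallowest libraries were R04, P01 and P04. Of 5 epithelial names (the miR-200 family), 3 had a row. Their summed level was 10482 to 15999 normalized CPM in P4+RU486 and 7118 to 30229 in P4.

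The miR-92a-seed signal held by 10_3805 and X_35741 made up most of the family and was one of the most abundant in vesicles. In P4+RU486 it stood at 59129 normalized CPM in R01, 45290 in R02, 54873 in R03 and 56973 in R04. In P4 it stood at 66358 in P01, 76358 in P02, 51178 in P03 and 50592 in P04. P01 and P02 were above every P4+RU486 library, whereas P03 and P04 lay within the range of that treatment, so the groups overlapped. The signal ranked 4th or 5th of the 495 rows in P4+RU486 libraries and 2nd to 5th in P4 libraries. It averaged 54066 ± 6104 normalized CPM in P4+RU486 and 61122 ± 12508 in P4 (SD, n = 4 each), 0.88 times as high. The log2 difference was -0.16 (SE 0.20, 95% interval -0.59 to 0.27, limma adjusted p = 0.806), which was within the spread between libraries. It rested on 5457 to 14465 reads per library in P4+RU486 and on 5303 to 46572 in P4.

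miR-25 was the only other abundant member, and it was lower in every P4+RU486 library than in any P4 library at the deposited scaling. It stood at 11054 normalized CPM in R01, 10526 in R02, 11753 in R03 and 10482 in R04. The P4 libraries held 13742 in P01, 15123 in P02, 13495 in P03 and 11983 in P04. R03 and P04, the nearest pair across the treatments, were 11753 and 11983. The means were 10954 ± 593 normalized CPM in P4+RU486 and 13585 ± 1287 in P4 (SD, n = 4 each), 0.81 times as high. The reads behind these values numbered 1004 to 3362 per library in P4+RU486 and 1256 to 12280 in P4.

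**Figure D1:**
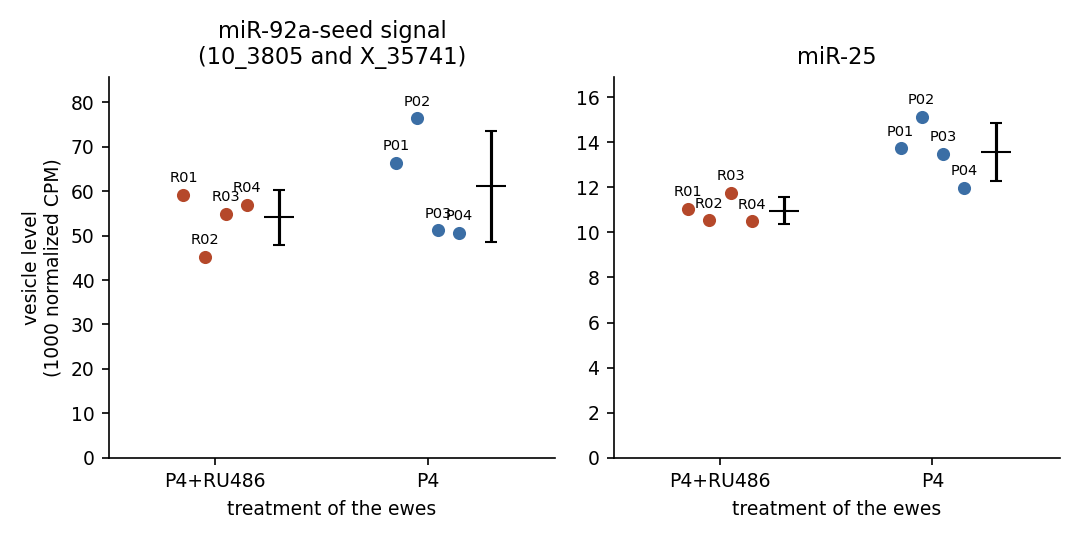
Vesicle level (y axis, in units of 1000 normalized CPM) of the miR-92a-seed signal (left) and miR-25 (right), with 1 point per library, P4+RU486 in red and P4 in blue, and the mean ± SD as a bar (n = 4 each). The miR-92a-seed signal overlaps between treatments, while miR-25 lies at 10482 to 11753 in P4+RU486, below the 11983 to 15123 of P4.

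The difference in miR-25 did not pass the test across all rows. Its log2 difference was -0.31 (SE 0.19, 95% interval -0.72 to 0.10), with an unadjusted limma p of 0.128 and an adjusted p of 0.494, and it placed 59th of 229 tested rows by p. The SE from its own libraries alone was 0.079. The moderated SE printed above is larger because limma draws each row's variance toward that of rows of similar level. Of the 229 rows, 12 (5.24%), miR-25 included, had all P4+RU486 libraries below all P4 libraries, so such a separation was not rare among the tested rows. Among the 12, 11_5450 and 24_21621 had the same estimate and means. An exact 2-sided permutation test on miR-25 alone gave p = 0.0286, the smallest that 4 against 4 can give. This p is fixed once the treatments do not overlap, and the test was added after the values were seen. It therefore adds nothing to the separation itself. That separation depended on the scaling: with plain library totals and with median-of-ratios size factors the treatments overlapped, the log2 difference was -0.39 and -0.33, and the exact permutation p was 0.0571 in both. Under these scalings 6.61% and 6.99% of the tested rows had all P4+RU486 libraries below all P4 libraries, and miR-25 was not among them. Without the 3 shallowest libraries the remaining 3 P4+RU486 libraries lay below both P4 libraries, with a log2 difference of -0.36 and an exact permutation p of 0.1, the smallest this split allows.

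No member passed the threshold of 0.05 in vesicles: 0 of the 3 tested rows (2 distinct signals) did, against 0.437% of all 229 rows. By limma, by edgeR's quasi-likelihood test and by DESeq2, 0 members had an unadjusted p under 0.05. Across the 19 other settings tried, both members stayed below 0 without a call. edgeR gave miR-25 a log2 difference of -0.31 (adjusted p = 0.506), and DESeq2 gave -0.34 (SE 0.20, adjusted p = 0.348). In the authors' deposited table for vesicles, where a positive fold is higher in P4, the fold of miR-25 was 1.24 (adjusted p = 0.99). For 10_3805 and X_35741 the authors' deposited table gave 1.13 with an adjusted p of 1. Of the 495 rows there 1.82% had an adjusted p under 0.05, and none of the 5 family rows was among them.

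**Figure D2:**
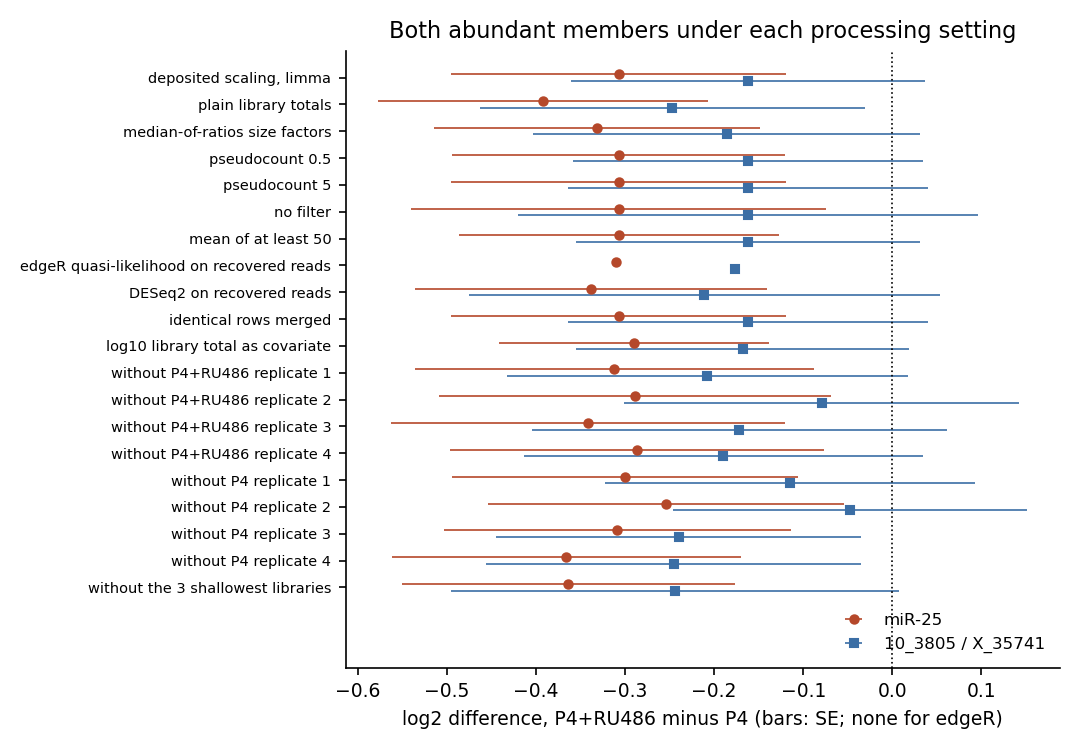
Log2 difference in vesicles (x axis, P4+RU486 minus P4, bars show the SE, none for edgeR) of miR-25 (red circles) and the miR-92a-seed signal (blue squares) at the deposited scaling with limma (top) and under 19 other settings. miR-25 lies between -0.39 and -0.25 and the miR-92a-seed signal between -0.25 and -0.048 in these 19 settings. Replicate 1 of P4 is P01, replicate 1 of P4+RU486 is R01, and so on.

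The remaining members were scarcely detected. 2_15108 had 0, 3, 2 and 0 reads in R01 to R04 and 1, 4, 2 and 2 reads in P01 to P04. It thus had a read in 2 of 4 P4+RU486 libraries and in 4 of 4 P4 libraries, at 0 to 9.56 normalized CPM in P4+RU486 and 2.20 to 19.1 in P4. X_35743 had 2 reads in R02 and 1 read in P02, and 0 reads in each of the other 6 libraries. With a limit of 3 reads for a count of 0, levels below 3.30 to 31.3 normalized CPM, depending on the library, cannot be told from absence, for counting error only. Both rows fell under the mean of 10 normalized CPM required for the test. Without that filter the log2 difference was -1.37 (SE 1.31, limma adjusted p = 0.789) for 2_15108 and 0.33 (SE 0.72, limma adjusted p = 0.863) for X_35743. That of X_35743 was smaller than its SE, that of 2_15108 slightly larger, and neither was called. In the authors' deposited table for vesicles, their folds were 1.23 for 2_15108 and -2.54 for X_35743, with adjusted p-values of 0.98 and 0.83.

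The family as a whole took 6.67% ± 0.683 of the reads in P4+RU486 libraries and 8.40% ± 2.49 in P4 libraries (SD, n = 4 each), with the identical pair counted once. The share was 5.68% to 7.19% in P4+RU486 and 5.79% to 11.5% in P4, so the ranges overlapped. P01 and P02 had the highest shares, 11.5% (95% Wilson interval 11.3 to 11.7, counting error only) and 9.20% (9.13 to 9.28). These shares are of the plain read totals, and they moved with the scaling. On the library size that the authors adjusted, the family took 6.50% ± 0.631 in P4+RU486 and 7.47% ± 1.36 in P4. There the P4 range was 6.26% to 9.15%, and P02 rather than P01 was highest. The miR-92a-seed signal accounted for 83.04% ± 1.597 of the family's reads in P4+RU486 and 81.6% ± 1.97 in P4. miR-25 supplied 16.9% ± 1.58 in P4+RU486 and 18.4% ± 1.97 in P4. The miR-92a-seed signal was 4.30 to 5.44 times as high as miR-25 in P4+RU486 libraries and 3.79 to 5.05 times in P4 libraries. Reads are not corrected for how well each sequence is captured in a library, so this ratio compares libraries rather than molecules.

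At the deposited scaling both abundant members had a smaller spread between libraries of a treatment than the median abundant row. Among the 64 rows with a mean of at least 1000 normalized CPM, miR-25 had the smallest SD within treatments, 0.11 on the log2 scale, where the median row had 0.37. The miR-92a-seed signal had 0.24, the 10th smallest. This order moved with the scaling. Under median-of-ratios size factors miR-25 had the 2nd smallest SD (0.17) and under plain library totals the 10th smallest (0.21). The miR-92a-seed signal placed 31st and 38th of 64 there (0.32 and 0.33).

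**Figure D3:**
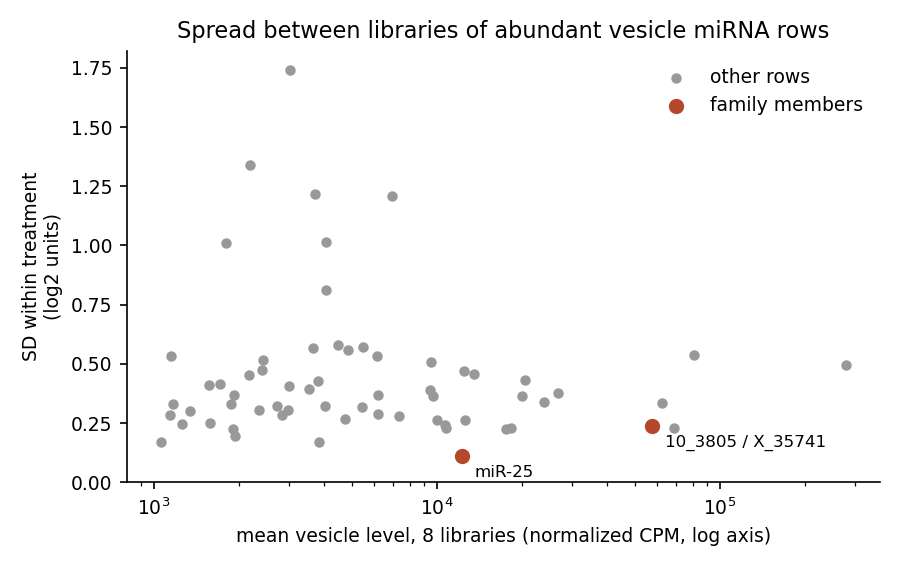
SD within treatments on the log2 scale (y axis) against the mean level over 8 libraries (x axis, normalized CPM, log axis) for the 64 vesicle rows with a mean of at least 1000, with family members in red and other rows in grey. At the deposited scaling miR-25 lies lowest at 0.11 and the miR-92a-seed signal at 0.24, below the median of 0.37.

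At the deposited scaling the patterns of miR-25 and of the miR-92a-seed signal over the 8 libraries were closer to each other than to any other row compared. Each row was centred on its mean over the libraries, and likeness was the root mean square difference of log2 values. Between miR-25 and the miR-92a-seed signal it was 0.17, where the median distance to the 121 other rows with a mean of at least 100 was 0.48 for miR-25 and 0.57 for the miR-92a-seed signal. The rows next closest to miR-25 were 3_25899 with the miR-181a seed (0.18), miR-181a itself (0.20) and 1_3142 with the miR-28a-3p seed (0.20). Those closest to the miR-92a-seed signal were 1_3142 (0.22), 3_25899 (0.23) and 5_29575 with the miR-378 seed (0.24). These distances are smallest between rows that vary little, and all rows share the same libraries and depth.

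Other microRNAs of the clusters that encode the family were less abundant in vesicles. The list of cluster neighbours (miR-17, miR-18a, miR-18b, miR-19a, miR-19b, miR-20a, miR-20b, miR-93, miR-106a and miR-106b) matched 10 rows, of which 5 had a mean of at least 10 normalized CPM. The numbers of miR-20b and miR-93 matched 0 rows, so these names were not covered. miR-106b, which shares a primary transcript with miR-25 in mammals, stood at 90.6, 172.2, 124.3 and 104.4 normalized CPM in R01 to R04. In P4 it stood at 23.6, 73.01, 161.5 and 38.2 in P01 to P04, from 3 and 4 reads in P01 and P04. miR-25 was thus 61.1 to 122 times as high as miR-106b in P4+RU486 libraries and 83.5 to 583 times in P4 libraries, on the scale of normalized reads. miR-17-5p, the first microRNA of the miR-17-92 cluster, was at 81.3 to 168 normalized CPM in P4+RU486 and at 39.3 to 192 in P4. The miR-92a-seed signal was 352 to 675 times as high as miR-17-5p in P4+RU486 and 266 to 1689 times in P4. In P01 and P04 these ratios rest on 5 and 6 reads of miR-17-5p. The most abundant neighbour was 24_21892, with the miR-20a seed. It stood at 2980, 2495, 2549 and 2036 normalized CPM in R01 to R04 and at 1131, 2106, 2787 and 1317 in P01 to P04, and the treatments overlapped.

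None of the 5 tested neighbours passed, with limma adjusted p-values from 0.397 to 0.833, and 0 of them had an unadjusted limma p under 0.05 in that fit. Their estimates lay above 0 in 4 and below 0 in 1, with a median log2 difference of 0.54 beside 0.036 over all 229 rows, and 118 of the 229 rows were above 0. For miR-106b the log2 difference was 1.04 (SE 0.56, 95% interval -0.17 to 2.26), and for 24_21892 it was 0.54 (SE 0.31, -0.14 to 1.21). The estimate was 0.59 (SE 0.50) for miR-17-5p and 0.33 (SE 0.49) for 10_3802, a row with the miR-20a seed. miR-19b, of the miR-17-92 cluster, was the one below 0, at -0.40 (SE 0.40). The sizes moved with the libraries and the depth term. Without R04, P01 and P04 together, 2 of the 5 neighbours were above 0 with a median of -0.11, and miR-106b and 24_21892 were at 0.20 and 0.14. Without P04 alone, 3 of the 5 were above 0. Without P03, the deepest library, miR-106b was at 1.54 (limma adjusted p = 0.159), 24_21892 at 0.77 (adjusted p = 0.235) and miR-17-5p at 1.04 (adjusted p = 0.310). With the log10 library total as a covariate, miR-106b was at 1.31 (limma adjusted p = 0.134) and 24_21892 at 0.68 (adjusted p = 0.0900). The unadjusted p was under 0.05 for each of these 5 estimates. No neighbour passed the adjusted threshold in any setting. The intervals of all 5 neighbours and of both members spanned 0, and a difference between members and neighbours was not tested.

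**Figure D4:**
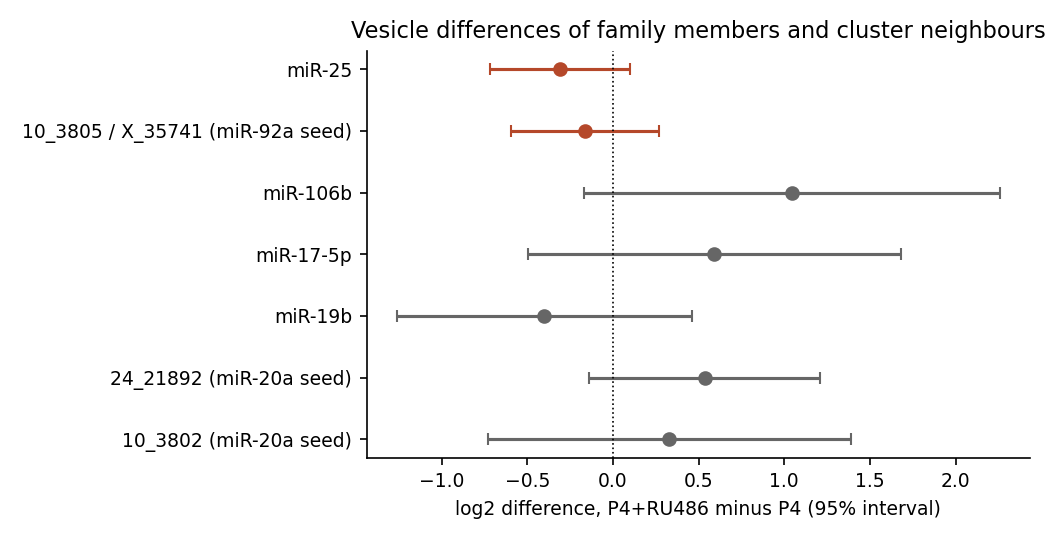
Log2 difference in vesicles (x axis, P4+RU486 minus P4) with the 95% interval from limma for both abundant family members (red) and the 5 tested cluster neighbours (grey). miR-25 (-0.31) and the miR-92a-seed signal (-0.16) lie below 0 with short intervals, 4 neighbours (2 without the 3 shallowest libraries) lie above 0 with longer ones, and every interval spans 0.

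Markers of other cells were listed beside the family. The only erythroid name of 3 with a row, miR-486 (26_23579 by its seed), was at 1848 to 5427 normalized CPM in P4+RU486 and 281 to 7365 in P4. Without R04, P01 and P04 it was the only 1 of 228 tested rows with a limma adjusted p under 0.05, higher in P4+RU486. Among the P4 libraries it was lowest in P02, where both abundant members were highest, and highest in P04, where both were lowest. In P03 it was nearly as low (362.6) with the miR-92a-seed signal near its P4 minimum, and among the P4+RU486 libraries it was highest in R03, where miR-25 was highest too. Leukocyte rows (3 of 4 names) summed to 1645 to 4505 in P4+RU486 and 1918 to 13883 in P4, with the maximum in P01. Most of that sum was miR-150, with means of 2282 in P4+RU486 and 5859 in P4. The miR-155-seed row 1_2861 had means of 157 and 200. The miR-142b-seed row 11_5329 went the other way, at 55.5 in P4+RU486 and 19.7 in P4. Smooth muscle rows (2 of 2 names) summed to 9730 to 14935 in P4+RU486 and 10828 to 16531 in P4. Nearly all of this was miR-143, with means of 12211 in P4+RU486 and 12899 in P4. The miR-145-seed row 5_29566 had means of 36.4 and 99.97. Multiciliated-cell rows (2 of 4 names) summed to 11174 to 19140 in P4+RU486 and 10637 to 14908 in P4. The part of these markers in the miR-25 values was not tested. In such bulk libraries, fewer vesicles of one source and less of a microRNA per vesicle cannot be told apart.

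In the endometrium, the authors' deposited table gave no call for the family at an adjusted p under 0.05, where 1.18% of its 761 rows had one. The treatment in the numerator of those folds is not named, so signs are given as coded. In the authors' deposited table the fold of miR-25 was -1.30 (adjusted p = 0.657), and 10_3805 and X_35741 both had -1.22 (adjusted p = 0.71). For the sparse members the authors' deposited table gave -1.38 for 2_15108 (adjusted p = 0.448) and 1.50 for X_35743 (adjusted p = 0.575). Hence 4 of the 5 family rows were negative there, with 10_3805 and X_35741 counted separately despite their equal folds, beside 397 of all 761 rows. Of the 11 neighbour rows in the authors' deposited table for endometrium, 8 were negative and none had an adjusted p under 0.05. The smallest was 0.096, for 10_3799 with the miR-19a seed (fold -1.47).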

How the data were processed

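Small RNA libraries were trimmed with cutadapt 1.11 and analysed with build Oar_v3.1 and edgeR, per the submitters' processing notes; neither the aligner nor the locus predictor is named in these sources. For vesicles the deposited values form a normalized signal, CPM on an adjusted library size. They came out as whole reads (tolerance 0.1 read) for 100% of entries in every column, and the reads were recovered. The deposited signed fold change (handled as a score) and the adjusted p-value are the authors', per the file headers. Vesicle columns name the treatment by a letter (P or R), not the ewe. The 10 endometrium value columns match no label and were not used.

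Rows with a mean of at least 10 (229) were tested with limma 3.58.1 (trend, R 4.3.3) on log2(value + 1), 4 against 4 libraries, with Benjamini-Hochberg adjustment over all rows. Fold changes on this scale understate those of low rows. edgeR 4.0.16 and DESeq2 1.42.0 were run on the recovered reads of the same rows. DESeq2 gave no adjusted p for 89 of the 229 rows, so its adjustment covered fewer rows than that of limma or edgeR. The main limma, edgeR and DESeq2 fits, not the other settings, were tried on simulated counts. The spread of those counts was set in advance rather than taken from these libraries. The tests treated the libraries as coming from separate ewes, which the labels do not name. Exact permutation tests were 2-sided and added after the values were seen. All members were described. The neighbours named were those of the cluster list, and the rows of like pattern were the 3 nearest. The members and lists were chosen with earlier results of these data known. The Wilson intervals and the floors cover counting error only, while the limma intervals rest on the spread between libraries.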

Additional observations from a re-analysis of the deposited data

Results flagged for a closer look

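In both treatments 1 library stood apart from the other 3 for X_35743, the sparsest row with the miR-92a seed. It was at 6.26 normalized CPM (2 reads) in R02 among the P4+RU486 libraries and at 1.87 (1 read) in P02 among the P4 libraries, with 0 in the other 3 libraries of each. Of 8 groups of 4 libraries examined 2 stood out in this way. Chance flags about 1 in 20 groups, and a row of 1 or 2 reads in a single library is flagged whatever its level.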

How the results depend on the processing

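In vesicles 0 members were called under any of the 19 alternatives run. miR-25 stayed below 0 in all 19 (-0.39 to -0.25, adjusted p 0.320 to 0.789), and the miR-92a-seed signal likewise (-0.25 to -0.048, adjusted p 0.621 to 0.943). Leaving out P02 brought the miR-92a-seed signal nearest to 0. Over all rows 1 was called in the limma test (miR-99a, not a member), 5 with DESeq2, 6 with the log10 library total as a covariate, and 0 to 2 with 1 library left out. The DESeq2 count leaves out 89 rows to which it gave no adjusted p. Without the 3 shallowest libraries 1 row was called, 26_23579 with the miR-486 seed, higher in P4+RU486, and miR-99a was not called. With the identical rows counted as listed, the family share was 11.6% in P4+RU486 and 14.2% in P4. The exact permutation p of miR-25 was 0.0571 with plain library totals (log2 difference -0.39) and with median-of-ratios size factors (-0.33). Without the 3 shallowest libraries (-0.36) the treatments stayed apart, and the p of 0.1 is the smallest that split can give. The P4+RU486 ewes and the P4 ewes were taken as separate animals, so no pairing between the treatments was used. The vesicle columns do not name the ewe. Over all tested rows the SE had a median of 0.51 (log2), and both sparse members had at most 4 reads in any library.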
